A study of Mus musculus with 18 samples.

Results

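The HMG-box factors described here are Sox13, Sox4, Sox5, Tcf7, Lef1, Tox and Tox2, transcription factors that share the high mobility group (HMG) DNA-binding domain and are known from T cell and gamma delta T cell development. They were taken by gene symbol, and all 7 were found among the 34082 gene rows of the deposited table. Expression was measured by RNA-seq in 18 libraries from 7 thymocyte populations, each sort yielding about 10000 thymic cells of C57BL/6 mice aged 10 days after birth. The populations were DN1ab (n = 2), DN1d (n = 2), DN1e (n = 3), DN1 ckit+ (n = 3), DN2 (n = 3), DN4 (n = 3) and ImmV2 (n = 2). DN stands for double negative, meaning without CD4 and CD8 on the surface, and the stages run from DN1 to DN4. The ckit+ cells are DN1 cells with the stem cell factor receptor Kit. The series concerns the progenitors of Tgd17 cells, which are IL-17-producing gamma delta T cells, and its design text names ImmV2 as a population the others may be set against. What ImmV2 abbreviates is left as the labels have it. No allele, transgene or treatment is named in the labels for any group. RNA was amplified before library preparation, and the number of animals behind a sort is not given in the sources used here. The submitters call the libraries biological replicates, but no label ties them to separate animals, so p-values measure only how far these libraries vary, part of which may be technical.

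The HMG box is a short domain that binds DNA in the minor groove and bends it. Tcf7 encodes TCF-1 and Lef1 encodes LEF-1, which bind the same kind of site, recruit beta-catenin or Groucho corepressors, and are needed in the mouse for early T cell development. Sox proteins recognise a related core sequence. Sox5 and Sox13 belong to the SoxD group, whose members have no known activation domain of their own, and Sox4 belongs to the SoxC group, whose members activate transcription. In mice, Sox13 and Sox4 are known to be required for gamma delta T cells that produce IL-17 to develop. Tox and Tox2 are close relatives of each other. Tox is known for its role in CD4 lineage development and in innate lymphoid cells.

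The promoter windows of Tox2 are shown because this gene gave the clearest separation of ImmV2 from the other populations among the HMG-box factors, and because of the 6 members with a RefSeq window it alone held one of the letter strings searched. Windows came from RefSeq on mouse build GRCm38.p6 and ran from 250 bases before to 50 bases after each transcript start, 300 bases in all. Of the members, Lef1, Sox13, Sox4, Sox5, Tcf7 and Tox2 together had 14 windows, and Tox had none in the table. The letters searched on both strands were CTTTGAT and CTTTGTT, as in TCF/LEF sites, and AACAAT, as in SOX sites. CTTTGTT read on the other strand is AACAAAG, which also resembles a SOX site. Capitals mark the matched letters. The first window is on chromosome 2, plus strand, chr2:163202877-163203176, and holds AACAAT. The other is chr2:163225203-163225502, plus strand, and holds CTTTGAT on the opposite strand, which reads ATCAAAG in the printed strand.
Tox2 window with AACAAT: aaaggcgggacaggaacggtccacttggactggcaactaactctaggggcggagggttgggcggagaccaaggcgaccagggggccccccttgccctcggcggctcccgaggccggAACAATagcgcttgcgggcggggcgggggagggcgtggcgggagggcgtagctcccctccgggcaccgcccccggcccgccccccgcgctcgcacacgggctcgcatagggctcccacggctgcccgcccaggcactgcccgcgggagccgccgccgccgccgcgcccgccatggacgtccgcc
Tox2 window with ATCAAAG: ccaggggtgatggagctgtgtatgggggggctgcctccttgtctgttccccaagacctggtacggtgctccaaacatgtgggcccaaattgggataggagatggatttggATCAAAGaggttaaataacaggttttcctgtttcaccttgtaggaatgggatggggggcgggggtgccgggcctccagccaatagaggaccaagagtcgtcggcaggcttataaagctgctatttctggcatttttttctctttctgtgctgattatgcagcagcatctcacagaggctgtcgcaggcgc
Among all 32851 windows of this length, AACAAT was found in 10.7%, CTTTGTT in 5.85% and CTTTGAT in 3.73%, and at least one of the 3 in 18.7%. The members had a match in 3 of their 14 windows. All 3 belonged to Tox2, and 2 of them were the same site seen from starts a base apart. A match describes letters only, and the absence of a match says nothing on whether a factor binds.

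The values are log2 FPKM as deposited and are given here back on the FPKM scale, which is a level per length of transcript. By name, FPKM means fragment numbers scaled by transcript length and by library total. Any further normalization between libraries is not given in the sources used here. The lowest value in the table is 0.01 FPKM, and between 34.7% and 53.6% of rows in a library had it. Actb, which every cell uses, was also at this value in 3 libraries and under 1 FPKM in others, so 0.01 FPKM is read as a listed value and not as absence. Replicates of a population could differ widely in Actb, with 0.01 and 1045 FPKM in ImmV2 1 and 2. DN2 1 to 3 had 0.215, 1585 and 0.0292 FPKM, and the DN4 libraries had 675 to 965 FPKM. The table holds no counts, and the depth of the libraries is unknown. Of the gate markers, Kit lay at 49.9 to 141 FPKM in DN1 ckit+ and at 5.99 and 17.3 FPKM in ImmV2. It was also at 13.9 to 105.9 FPKM in DN2 and at 18.33 and 55.65 FPKM in DN1ab. For Trgv2, a V segment of the gamma chain locus, DN1d had 117 and 204 FPKM, ImmV2 had 122 and 657 FPKM and DN1 ckit+ had 0.01 to 0.202 FPKM. Trgv2 was also at 17.99 to 66.27 FPKM in DN4 and at 8.204 to 63.57 FPKM in DN1e. Cd44, a marker of the DN1 gate, was under 0.1 FPKM in every DN1d and DN1e library and in DN1 ckit+ 1 and 2. Cd24a split replicates: DN1e 1 and 3 reached 347 and 354 FPKM, while DN1e 2 was listed at 0.01 FPKM. For ImmV2 1 and 2 the Cd24a values were 0.01 and 468.5 FPKM. Cd8b1 reached 224 FPKM in DN1ab 1 and 207 FPKM in DN1ab 2, although DN cells lack surface CD8 by definition. The same libraries had Cd8a at only 0.210 and 0.0792 FPKM. Whether the sorted cells match their labels was not tested. In sorted bulk samples, fewer cells of a type and less RNA per cell cannot be told apart.

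All 7 members reached at least 1 FPKM in at least 2 libraries and so passed the filter, together with 24525 genes in all. Tox did so in all 18 libraries, Tcf7 in 16, Sox13 in 14, Tox2 in 7, Lef1 in 6, Sox5 in 5 and Sox4 in 2. Lef1 was listed at the lowest value in 10 libraries, Tox2 in 7, Sox5 in 3, Sox13 in 2, Tcf7 in 1, and Sox4 and Tox in 0. The most widely present of the factors was therefore Tox. Lef1 was at the lowest value throughout DN1ab, DN1d and DN1e, and Tox2 throughout DN1ab only.

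**Figure D1:**
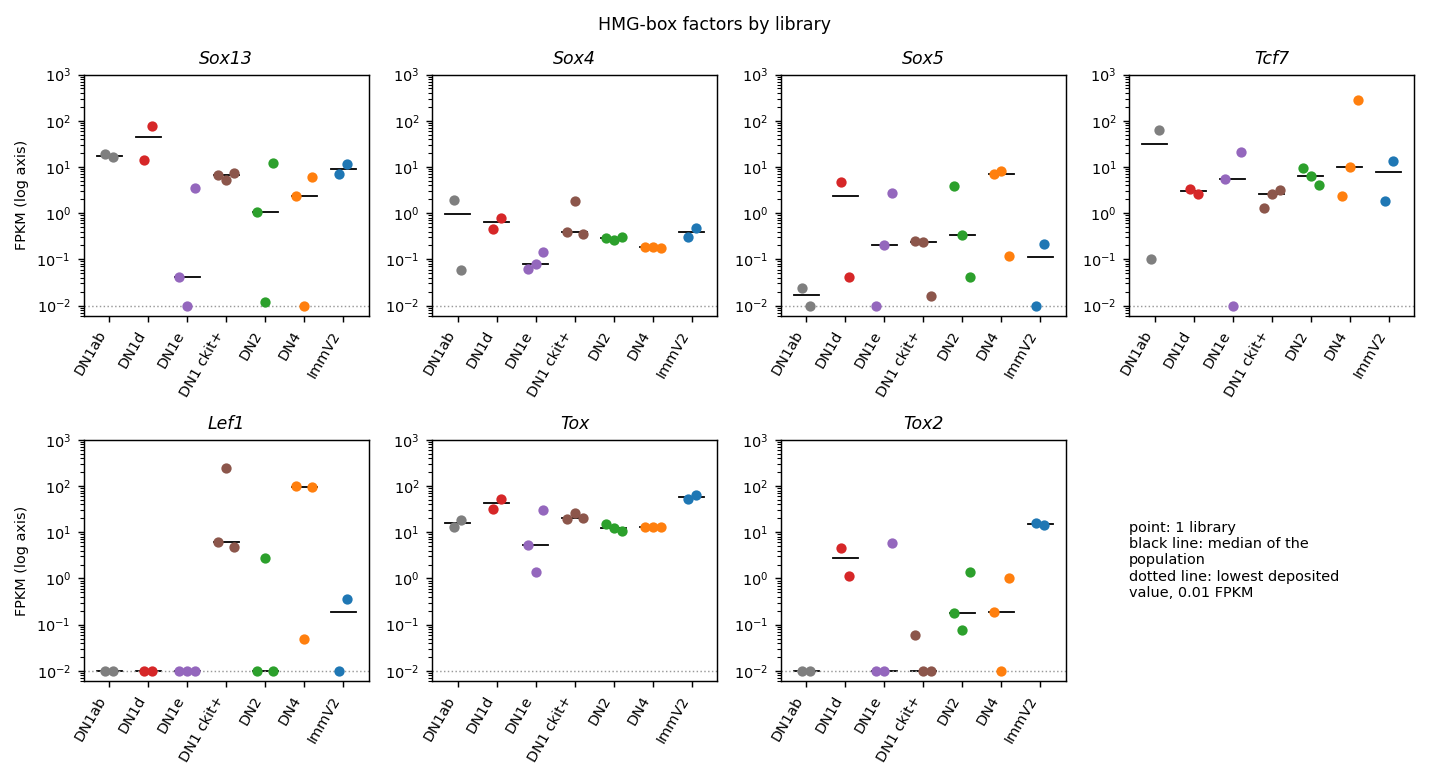
FPKM (log axis) of the 7 HMG-box factors in each of the 18 libraries, grouped by population; points are libraries, black lines are population medians and the dotted line is the lowest value of 0.01 FPKM. Tox lies between 1.39 and 62.9 FPKM throughout, Tox2 is highest in ImmV2, and Lef1 is at the lowest value in every DN1ab, DN1d and DN1e library.

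Sox13, the SoxD factor known from the gamma delta lineage in mice, was highest in DN1d and DN1ab and uneven elsewhere. DN1ab had 18.8 and 16.4 FPKM, DN1d had 14.0 and 76.3 FPKM, and ImmV2 had 7.15 and 11.3 FPKM. In the 3 DN1 ckit+ libraries it had 6.67, 5.18 and 7.33 FPKM, all within a narrow band. These 4 populations had Sox13 in every library, and the DN1d and DN1ab libraries all lay above the ImmV2 and DN1 ckit+ libraries. DN1e had 0.0425, 0.01 and 3.59 FPKM, DN2 had 1.07, 0.0118 and 12.4 FPKM, and DN4 had 2.34, 0.01 and 6.16 FPKM. In each of these 3 populations at least 1 library was at or near the lowest value while another was above 3 FPKM, so the level of the population is poorly fixed. By median the order was DN1d at 45.2, DN1ab at 17.6, ImmV2 at 9.23, DN1 ckit+ at 6.67, DN4 at 2.34, DN2 at 1.07 and DN1e at 0.0425 FPKM. Neighbouring ranges overlapped in this order except between DN1ab and ImmV2.

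The limma fit of log2(FPKM + 1) did not call Sox13 in any comparison. Against ImmV2 the log2 difference was 1.77 in DN1d (95% interval -1.16 to 4.69, limma adjusted p = 0.878), an interval that holds 0 and differences well above it. In DN1e it was -2.57 against ImmV2 (SE 1.26, limma adjusted p = 0.511), and in DN1d it was 2.22 against DN1 ckit+ (SE 1.26, limma adjusted p = 0.695). The DN1d difference from ImmV2 was 0.58 without DN1d 2 and 2.95 without DN1d 1. That from DN1 ckit+ was 1.03 without DN1d 2 and 3.40 without DN1d 1.

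Sox4 was low in every population. Its highest values were 1.90 FPKM in DN1ab 1 and 1.80 FPKM in DN1 ckit+ 2, the only libraries at or above 1 FPKM. The other DN1ab library had 0.0596 FPKM, and the other DN1 ckit+ libraries had 0.395 and 0.356 FPKM. Within DN1ab and within DN1 ckit+ the gap between the highest and the lowest replicate was thus wider, in FPKM, than the gap between any 2 population medians. DN1d had 0.461 and 0.803 FPKM, DN1e had 0.0604, 0.0791 and 0.148 FPKM, and ImmV2 had 0.301 and 0.470 FPKM. Replicates were even within the later stages, with 0.290, 0.256 and 0.301 FPKM in DN2, then 0.189, 0.188 and 0.175 FPKM in DN4. The DN4 libraries all lay below the DN2 libraries, and the DN1e libraries all lay below those of DN4. The log2(FPKM + 1) scale compresses such levels, and DN1e against DN1 ckit+ gave -0.67 (SE 0.47, limma adjusted p = 0.667).

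Sox5, the other SoxD factor, was present in scattered libraries. DN4 had 7.07, 8.33 and 0.118 FPKM, DN1d had 4.65 and 0.0417 FPKM, and DN2 had 3.82, 0.341 and 0.0417 FPKM. DN1e had 0.01, 0.202 and 2.70 FPKM, and the other populations stayed at or below 0.253 FPKM. Of those, DN1ab had 0.0243 and 0.01 FPKM, DN1 ckit+ had 0.253, 0.237 and 0.016 FPKM, and ImmV2 had 0.01 and 0.218 FPKM. Every population that reached 1 FPKM also held a library at or under 0.202 FPKM. DN4 against ImmV2 gave a log2 difference of 1.98 (SE 1.05, limma adjusted p = 0.764), with overlapping groups.

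Tcf7, which encodes TCF-1 and is induced by Notch signals as cells enter the T lineage, was present in 16 libraries without an order among the populations. DN1ab had 0.0999 and 61.9 FPKM, DN1d had 3.41 and 2.55 FPKM, and DN1e had 5.47, 0.01 and 21.2 FPKM. The stage series gave 1.30, 2.59 and 3.18 FPKM in DN1 ckit+, 9.39, 6.47 and 4.0 FPKM in DN2, then 2.33, 10.1 and 284 FPKM in DN4. In this series each DN2 library lay above each DN1 ckit+ library, while the DN4 libraries spread on both sides of DN2. ImmV2 had 1.82 and 13.7 FPKM, a range that overlapped that of every other population. DN2 against DN1 ckit+ gave a log2 difference of 1.17 (SE 1.65, limma adjusted p = 1), the wide error being the spread that all populations share in the fit. DN4 against ImmV2 gave 1.77 (SE 1.84, limma adjusted p = 0.941), which rested on DN4 3. Without DN4 3 the difference was -0.08.

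Lef1, the partner of Tcf7 in T cell development, was found mainly in DN1 ckit+ and DN4. It had 6.20, 249 and 4.85 FPKM in DN1 ckit+, 0.01, 2.73 and 0.01 FPKM in DN2, then 101, 0.0494 and 96.0 FPKM in DN4. All 7 libraries of DN1ab, DN1d and DN1e were listed at the lowest value, and ImmV2 had 0.01 and 0.364 FPKM. The DN1 ckit+ libraries lay above every library of DN1ab, DN1d, DN1e, DN2 and ImmV2. DN4 1 and DN4 3 lay within the range of DN1 ckit+. DN4 2 stood apart from them, below every DN1 ckit+ library and within the ranges of DN2 and ImmV2. On the log2(FPKM + 1) scale the difference was 4.22 in DN1 ckit+ against ImmV2 (SE 1.78, limma adjusted p = 0.610) and 4.22 in DN4 against ImmV2 (SE 1.78, limma adjusted p = 0.625). DN2 against DN1 ckit+ gave -3.81 (SE 1.59, limma adjusted p = 0.738), and DN4 against DN2 gave 3.80 (SE 1.59, limma adjusted p = 0.805). These sizes rested on DN1 ckit+ 2 and on DN4 2. Without DN1 ckit+ 2 the difference was 2.47 in DN1 ckit+ against ImmV2 and -2.06 in DN2 against DN1 ckit+. Without DN4 2 it was 6.40 in DN4 against ImmV2 and 5.99 in DN4 against DN2. For DN1d against DN1 ckit+ the limma adjusted p was 0.484, and no difference is given because DN1d was at the lowest value.

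Tox was the most evenly present HMG-box factor and was highest in ImmV2. DN1ab had 13.1 and 18.3 FPKM, and DN1 ckit+ had 19.8, 26.0 and 20.4 FPKM. DN2 had 15.2, 12.4 and 10.5 FPKM, and DN4 had 13.2, 13.0 and 13.3 FPKM. DN1d had 32.3 and 51.9 FPKM, and ImmV2 had 51.3 and 62.9 FPKM. The libraries of DN1ab, DN1 ckit+, DN2 and DN4 all lay below those of DN1d and ImmV2, and the 3 DN4 replicates lay close together. DN1e was the most uneven population, with 5.34, 1.39 and 30.0 FPKM. The order by median was ImmV2 at 57.1, DN1d at 42.1, DN1 ckit+ at 20.4, DN1ab at 15.7, DN4 at 13.2, DN2 at 12.4 and DN1e at 5.34 FPKM. Neighbouring ranges overlapped in this order except between DN1d and DN1 ckit+ and between DN1 ckit+ and DN1ab.

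Against ImmV2 the log2 difference of Tox was -2.89 in DN1e (SE 1.08, limma adjusted p = 0.344), -2.09 in DN2 (SE 1.08, limma adjusted p = 0.770), -2.03 in DN4 (SE 1.08, limma adjusted p = 0.765) and -1.81 in DN1ab (SE 1.18, limma adjusted p = 0.769). DN1 ckit+ gave -1.34 (SE 1.08, limma adjusted p = 0.887) and DN1d gave -0.46 (SE 1.18, limma adjusted p = 1). This last difference was -0.13 without DN1d 1 and -0.80 without DN1d 2. Tox was thus not called in any comparison, although the ImmV2 libraries did not overlap those of DN1ab, DN1e, DN1 ckit+, DN2 or DN4. The error of these differences comes from a spread shared by all populations.

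Tox2 separated ImmV2 from all other populations. Both DN1ab libraries were listed at the lowest value, and DN1 ckit+ had 0.0594, 0.01 and 0.01 FPKM. DN2 had 0.18, 0.0774 and 1.36 FPKM, and DN4 had 0.192, 0.01 and 1.04 FPKM. In these 4 populations Tox2 was at or near 1 FPKM in DN2 3 and DN4 3 and low in the other libraries. DN1d had 4.54 and 1.12 FPKM, and DN1e had 0.01, 0.01 and 5.99 FPKM, the last in DN1e 3. ImmV2 had 16.0 and 14.3 FPKM, above every other library. The ranges of DN1ab, DN1 ckit+ and DN4 overlapped at the lowest value, and those of DN4 and DN2, and of DN2 and DN1d, also overlapped.

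Tox2 had the smallest adjusted p of the 7 members in each of the 6 comparisons with ImmV2 and in the comparison of DN1d and ImmV2 together against DN1ab and DN1 ckit+ together, and passed the threshold in none. The log2 difference from ImmV2 was -3.98 in DN1 ckit+ (SE 0.93, limma adjusted p = 0.104), -3.58 in DN4 (SE 0.93, limma adjusted p = 0.183) and -3.49 in DN2 (SE 0.93, limma adjusted p = 0.224). It was -3.07 in DN1e (SE 0.93, limma adjusted p = 0.206) and -2.24 in DN1d (SE 1.02, limma adjusted p = 0.705), and the limma adjusted p for DN1ab was 0.140. For DN1d and ImmV2 together against DN1ab and DN1 ckit+ together the difference was 2.87 (SE 0.69, limma adjusted p = 0.0980). Whether Tox2 was called in 4 of these comparisons turned on a single library, DN1e 3. For DN1ab and DN1 ckit+ against ImmV2 and for the joint comparison, DN1e 3 is on neither side. It enters those through the spread that all populations share in the fit, and their log2 differences did not change without it. Without DN1e 3 the limma adjusted p against ImmV2 was 0.0403 for DN1ab, 0.0279 for DN1 ckit+ and 0.0197 for DN1e, and it was 0.0301 for the joint comparison, so that Tox2 was then called in all 4. Over all alternatives the adjusted p of Tox2 in these 4 comparisons ranged between 0.0197 and 0.721, and it was not under the threshold in any alternative for DN1d, DN2 or DN4 against ImmV2.

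**Figure D2:**
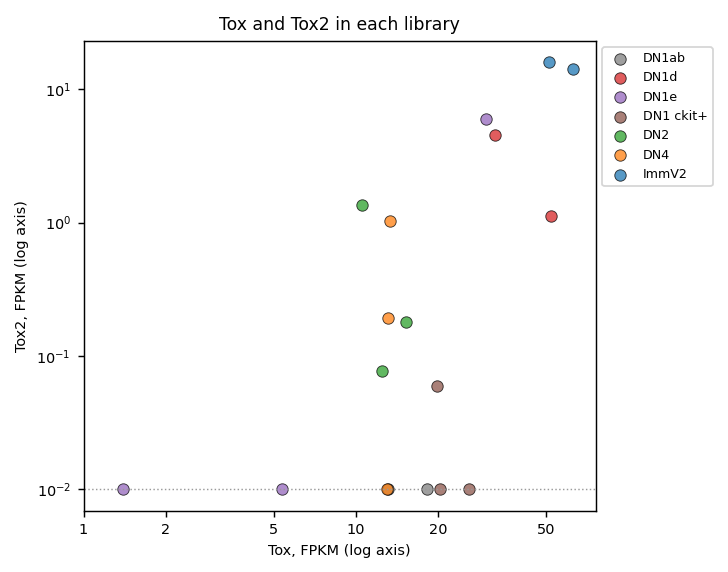
Tox (x axis, FPKM, log axis) against Tox2 (y axis, FPKM, log axis) in the 18 libraries, coloured by population, with the lowest value of 0.01 FPKM dotted. DN1e 3 lies near DN1d while DN1e 1 and 2 lie at the lower left, and the ImmV2 libraries sit at the upper right with Tox at 51.3 and 62.9 and Tox2 at 16.0 and 14.3 FPKM. At the lowest Tox2 value, the DN4 2 point covers the DN1ab 1 point.

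DN1e 3 also differed from DN1e 1 and 2 in other members: its Tox, Tcf7, Sox13 and Sox5 levels were each the highest of the 3 libraries. In all 3 DN1e libraries the summed level of 8 myeloid markers was 769 to 1277 FPKM, against 41.2 to 124 FPKM in DN1 ckit+ and 3.11 to 116 FPKM in ImmV2. Of the 8 markers, 5 were at least 1 FPKM in every DN1e library. Csf1r, another of the 8, was at 0.01, 0.01 and 0.0837 FPKM there, which is not read as absence. In ImmV2, 2 of the 8 were at the lowest value in both libraries. Lyz2, which encodes lysozyme, had 406, 290 and 226 FPKM in DN1e, with DN1e 3 the lowest of the 3, against 0.149 and 0.0329 FPKM in ImmV2. Itgam, another of the 8, went the other way: it was highest of all libraries in DN1e 3, at 161 FPKM. Its lowest value in DN1e was 0.01 FPKM. The part of these transcripts in the levels of the HMG-box factors in DN1e was not tested. The summed levels of the other marker lists overlapped between DN1e and ImmV2. They were 4.15 to 16.8 against 1.05 to 10.3 FPKM for 6 B cell genes, 7.66 to 41.0 against 6.45 to 13.2 FPKM for 4 dendritic cell genes, and 0.530 to 30.1 against 0.395 to 4.67 FPKM for 5 thymic epithelial genes.

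Across the 11 comparisons 0 of the 7 HMG-box factors were called by limma, where a call needed both an adjusted p under 0.05 and a log2 difference of 1 or more in either direction. Calls were rare over all 24525 genes as well. Against ImmV2 they made up 0.396% for DN1ab, 0.277% for DN1d, 0.591% for DN1e, 0.33% for DN1 ckit+, 0.188% for DN2 and 0.249% for DN4. Within the double-negative populations they were 0.363% for DN1d and 0.693% for DN1e, each against DN1 ckit+, then 0.0612% for DN2 against DN1 ckit+ and 0.0815% for DN4 against DN2. The share was 0.33% for DN1d and ImmV2 together against DN1ab and DN1 ckit+ together. With such shares a count of 0 of 7 is not a result about the members. Before adjustment, the limma p of Tox2 was under 0.05 in all 6 comparisons with ImmV2, which share the ImmV2 libraries, and in the joint comparison. Lef1 was under it in DN1 ckit+ and in DN4 against ImmV2 and in the 4 remaining comparisons, and Tox in DN1e against ImmV2. That made 1 or 2 of 7 members in each comparison, beside 1334 to 2641 of 24525 genes.

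The moderated F test over the 7 populations, which asks whether a gene differs anywhere among them, called 0 of 7 members and 1.4% of all genes. Its limma adjusted p was 0.224 for Tox2, 0.350 for Lef1, 0.369 for Sox13 and 0.658 for Tox, and 0.769 to 0.854 for Sox5, Sox4 and Tcf7. Before adjustment, 3 of the 7 members (Tox2, Lef1 and Sox13) were under the threshold, beside 11.3% of all genes.

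**Figure D3:**
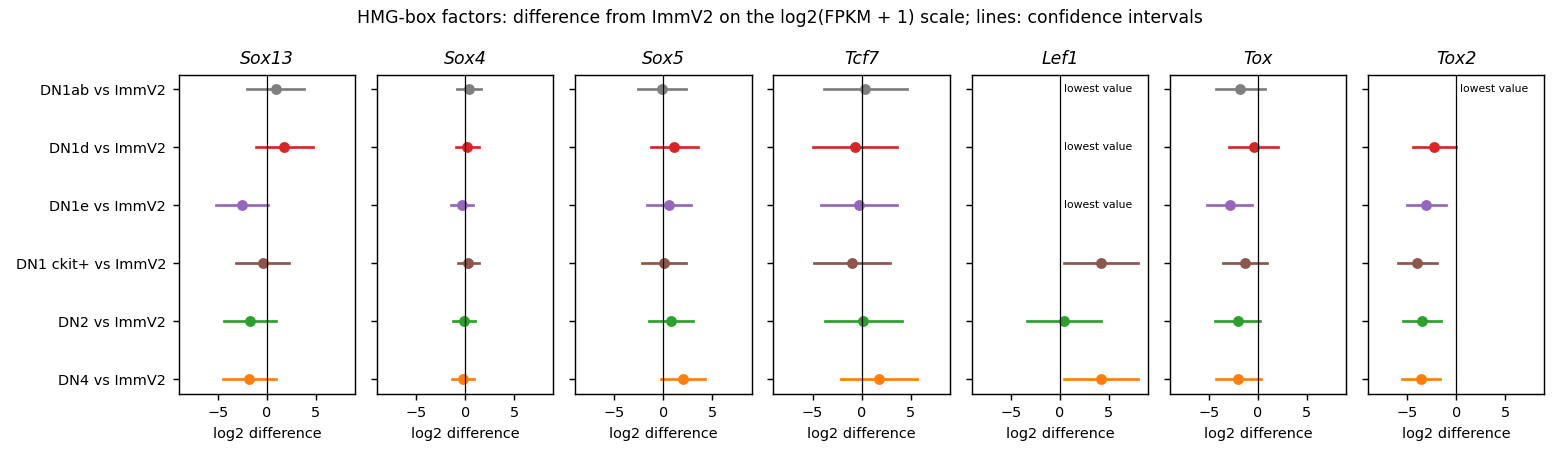
Log2 difference of each population from ImmV2 on the log2(FPKM + 1) scale (x axis) for the 7 factors, with points for the limma estimates and lines for their 95% intervals; no point is drawn where every library of a population was at the lowest value. The Tox2 estimates all lie below 0, from -3.98 to -2.24, while those of Sox4 lie close to 0.

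The factors differed in how well their replicates agreed. The residual SD of log2(FPKM + 1) within populations was 0.407 for Sox4, 0.825 for Tox2, 0.828 for Tox, 1.12 for Sox5 and 1.27 for Sox13, all below the median of 1.38 over all genes tested. For Lef1 it was 2.13 and for Tcf7 it was 2.19, above that of 84.8% and 86.4% of genes. The low SD of Sox4 goes with its low level on this scale. Tox2 reached 1 FPKM in 7 libraries only and Sox5 in 5, so their SDs also rest on many low values. Tox reached 1 FPKM in all 18, so the similar SDs of Tox and Tox2 do not mean equal agreement of replicates. For a population of 3 libraries against ImmV2 the SE of the log2 difference was 0.53 for Sox4 and 1.84 for Tcf7.

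Over the 18 libraries, Tox and Tox2 had a Pearson correlation of log2(FPKM + 1) of 0.652 and a Spearman rho of 0.562. Sox13 and Tox had 0.646 and 0.546. Without the 2 libraries farthest on this scale from the median of the first gene, r was 0.633 for Tox with Tox2 (DN1e 2 and ImmV2 2 left out) and 0.481 for Sox13 with Tox (DN1d 2 and DN1e 2 left out). Of the 21 pairs of members 14 had a positive r, with a median of 0.0326, and the lowest was -0.413 for Sox4 with Tcf7. These are descriptions over libraries that share populations, amplification and a normalization.

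For each member, the genes with the most similar pattern over the 18 libraries were taken from 14993 named genes by Pearson correlation. For Sox13 they were Shoc2 (0.819), Zfp329 (0.773) and Plcb3 (0.757), and for Tox they were Sesn3 (0.860), Cpsf4 (0.820) and Ctse (0.812). Tox2 was closest to Cda (0.887), Mex3b (0.875) and Izumo1 (0.858), and Lef1 to Xpo1 (0.905), Fam49b (0.883) and Zeb1 (0.870). Shoc2 encodes a scaffold of the Ras pathway, Xpo1 a nuclear export receptor and Zeb1 a zinc finger repressor. Tcf7 was closest to Stil, Itgb1bp1 and Zfp788 (0.810 to 0.811), Sox4 to Calcoco2, Clca2 and Kcnmb4 (0.877 to 0.911), and Sox5 to Slc12a1, Tab1 and Xlr5e-ps (0.80 to 0.842). Of these 21 genes, 3 were also among the closest 3 by Spearman correlation, namely Shoc2, Sesn3 and Slc12a1. Many of the others were above 1 FPKM in 2 to 5 libraries only.

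Of 35 other mouse genes with an HMG box that were followed, 34 were in the table and 28 passed the filter. Hmgb1, an abundant chromatin protein, was the most even of the 6 highest by median, at 17.4 to 182 FPKM in all 18 libraries. Hmgb3, a chromatin protein known from mouse blood progenitors, had a median of 37.6 FPKM and was the sole other HMG-box gene called in any comparison. The remaining 4 had medians of 0.166 to 5.28 FPKM. They were Wdhd1, a replication factor, Sox10, a neural crest factor, Pbrm1, a chromatin remodelling subunit, and Cic, a repressor downstream of receptor tyrosine kinases, and each was at the lowest value in 2 to 5 libraries. The Hmgb genes have near-identical copies elsewhere in the mouse genome, and how reads shared between copies were counted is not given in the sources used here, so their levels are uncertain.

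Hmgb3 was high in DN1ab and DN1 ckit+ and low in DN1d, DN1e and ImmV2. DN1d had 1.36 and 0.01 FPKM, DN1e had 0.01, 0.01 and 0.0171 FPKM, and ImmV2 had 0.01 and 2.93 FPKM. DN1ab had 228 and 181 FPKM, and DN1 ckit+ had 127, 112 and 168 FPKM. The high and the low populations did not overlap, and DN4 lay between them. DN2 had 95.0, 65.5 and 0.0117 FPKM and DN4 had 51.8, 69.5 and 23.5 FPKM, with DN2 3 apart from its replicates. Hmgb3 fell by 7.06 on the log2(FPKM + 1) scale in DN1e against DN1 ckit+ (SE 1.36, limma adjusted p = 0.0209). It fell by 6.56 in DN1d and ImmV2 together against DN1ab and DN1 ckit+ together (SE 1.13, limma adjusted p = 0.0149). The DN1e call was lost without any 1 of the 3 DN1 ckit+ libraries, at limma adjusted p of 0.0643 without DN1 ckit+ 1, 0.0523 without DN1 ckit+ 2 and 0.0697 without DN1 ckit+ 3. The joint call was lost with a pseudocount of 0.1 FPKM (limma adjusted p = 0.0517), on the values as deposited (0.120) and with only the compared populations in the fit (0.0569). Hmgb3 was thus 1 of 28 in each of these comparisons, beside calls of 0.693% and 0.33% over all genes. The median log2 difference of the 28 genes was -0.06 in the joint comparison, against -0.01 over all genes.

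**Figure D4:**
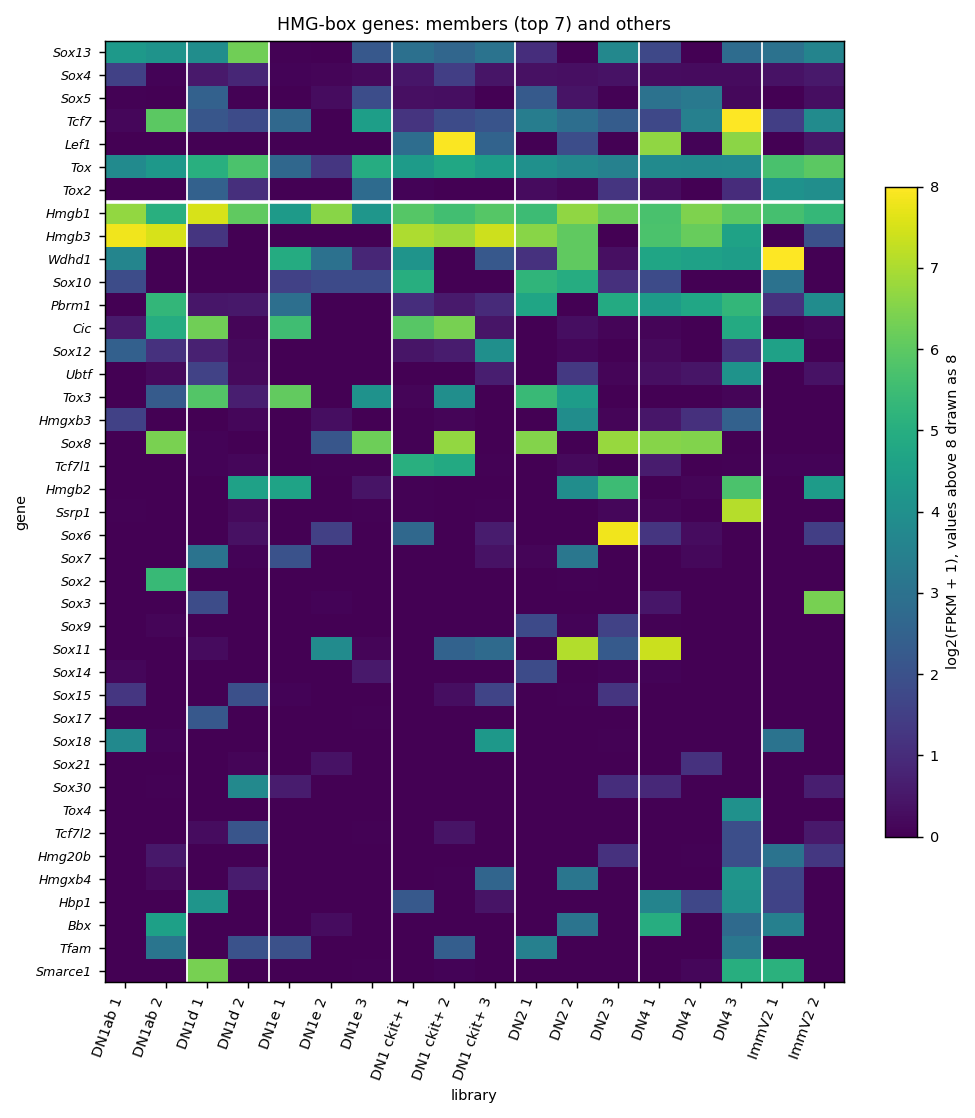
Level of the 7 factors (above the white line) and of the 34 other HMG-box genes (rows) in the 18 libraries (columns), as log2(FPKM + 1) with values above 8 drawn as 8. Tox and Hmgb1 are present in every column, Hmgb3 is bright in DN1ab and DN1 ckit+ and dark in DN1e, and many of the other Sox genes are bright in a few libraries only.

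The partners of Tcf7 and Lef1 and the Wnt pathway were followed with 21 genes, of which 20 passed the filter. None was called by limma in any of the 11 comparisons, and 0 to 2 of the 20 had an unadjusted p under 0.05 in a comparison. In the joint comparison the median log2 difference of the 20 was 0.35, against -0.01 over all genes. The following 3 were picked after their values were seen. Ctnnb1, which encodes beta-catenin, was under 2 FPKM in every library except DN2 1 with 44.0 FPKM and DN4 3 with 74.3 FPKM. Gsk3b, the kinase that marks beta-catenin for destruction, was at 6.15 to 38.1 FPKM throughout. Tle4, a Groucho corepressor, was at 0.896, 3.30 and 5.23 FPKM in DN4, against 6.62, 10.8 and 13.2 FPKM in DN2, with no overlap and no call.

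T-lineage genes known to act downstream of TCF-1 were followed with 16 genes, all of which passed the filter. In DN1d and ImmV2 together against DN1ab and DN1 ckit+ together, 3 of 16 rose and 0 fell, beside 0.33% of all genes called in either direction. The median log2 difference was 0.33 for the list and -0.01 over all genes. List and comparison were chosen with earlier results of these data known, and Cd3e is also one of the gate markers. The share called is therefore a description and not a test of the list. Bcl11b, the factor of T-lineage commitment, had 22.2 and 61.9 FPKM in the DN1d libraries and 32.8 and 36.6 FPKM in ImmV2, against 0.202 and 0.203 FPKM in DN1ab and 0.0277 to 0.217 FPKM in DN1 ckit+. It rose by 5.01 (SE 0.71, limma adjusted p = 0.00524), and the call was lost with only the compared populations in the fit (limma adjusted p = 0.0725). Cd3e, a chain of the receptor complex, had 117 and 51.6 FPKM in the DN1d libraries and 16.6 and 211 FPKM in ImmV2, against 0.0547 to 1.56 FPKM in the 5 others. It rose by 5.59 (SE 0.83, limma adjusted p = 0.00655), and its call was lost in the same fit (limma adjusted p = 0.129). Ets1, a factor of lymphocyte development, was at 56.6 and 111 FPKM in the DN1d libraries and 53.0 and 99.7 FPKM in ImmV2, and all 5 libraries of DN1ab and DN1 ckit+ were listed at the lowest value (limma adjusted p = 0.0110). Between the other pairs, 2 of 16 rose in DN1d against DN1 ckit+ (Bcl11b and Cd3e), 1 rose in DN1e against DN1 ckit+ (Cd3e), 1 rose in DN4 against DN2 (Cd3e) and 2 fell in DN1 ckit+ against ImmV2 (Bcl11b and Cd3e). The calls over all genes there were 0.363%, 0.693%, 0.0815% and 0.33%. The other 6 comparisons had none. Tcf7 itself overlapped between DN1d, ImmV2, DN1ab and DN1 ckit+, with a log2 difference of -0.05 in the joint comparison (SE 1.36, limma adjusted p = 1).

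Of 14 further genes of the Tgd17 programme, 13 were in the table and 10 passed the filter. Maf, a factor required in mice for IL-17-producing gamma delta cells, was the sole one called, and in the joint comparison only, where 0.33% of all genes were called. DN1d had 56.1 and 75.6 FPKM and ImmV2 had 39.0 and 40.7 FPKM, against 0.01 and 1.38 FPKM in the DN1ab libraries and 2.38, 1.61 and 2.85 FPKM in DN1 ckit+. The groups did not overlap, and Maf rose by 4.54 (SE 0.93, limma adjusted p = 0.0448). The call held in 6 of 26 alternatives, over which the adjusted p ranged between 0.00695 and 0.316. In DN1e, Maf had 36.0 and 21.7 FPKM in DN1e 1 and 2 and 0.0202 FPKM in DN1e 3, the library in which Tox, Tox2 and Tcf7 were high. Sox13 gave a log2 difference of 0.66 in the joint comparison (SE 0.94, limma adjusted p = 0.909) and Sox4 gave -0.22 (SE 0.39, limma adjusted p = 0.938), both with overlapping groups.

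In the same joint comparison, in which Hmgb3, Bcl11b, Cd3e, Ets1 and Maf were called, 1 of the 4 dendritic cell markers fell and 0 rose. It was Flt3, a receptor of dendritic cells and also of early progenitors. Its level was 0.210 and 0.0505 FPKM in the DN1d libraries and 0.0938 and 0.0246 FPKM in ImmV2, against 14.3 and 28.7 FPKM for the DN1ab libraries and 12.8, 9.11 and 19.3 FPKM for DN1 ckit+. The groups did not overlap, and Flt3 fell by 3.99 (SE 0.64, limma adjusted p = 0.00930). The call was lost on the values as deposited (limma adjusted p = 0.0768) and with only the compared populations in the fit (limma adjusted p = 0.110). The summed level of the 4 genes, Flt3 included, was 0.694 to 6.05 FPKM in DN1d and 6.45 to 13.2 FPKM in ImmV2. It was 28.2 to 30.0 FPKM in DN1ab and 16.2 to 21.5 FPKM in DN1 ckit+, again without overlap. The other genes of the list did not separate the groups as Flt3 did. Siglech was higher in ImmV2, at 4.62 and 11.5 FPKM, than in DN1ab (0.01 and 0.780 FPKM) and DN1 ckit+ (0.01 to 3.18 FPKM). In DN1d Siglech had 0.289 and 0.780 FPKM, and Itgax and Bst2 overlapped between the compared groups. Of the 4 genes, 0 in DN1d and 2 in ImmV2 were at least 1 FPKM in every library, against 1 in DN1ab and 2 in DN1 ckit+, and 0 of the 4 were at the lowest value throughout any of these populations. The summed levels of the B cell, myeloid and thymic epithelial markers overlapped between DN1d and ImmV2 together and DN1ab and DN1 ckit+ together, and 0 of those markers were called. The sums were 1.05 to 51.0 against 7.66 to 92.1 FPKM, 3.11 to 116 against 41.2 to 163 FPKM, and 0.395 to 15.0 against 0.108 to 20.2 FPKM. The part of cells with these markers in the calls of the joint comparison was not tested.

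**Figure D5:**
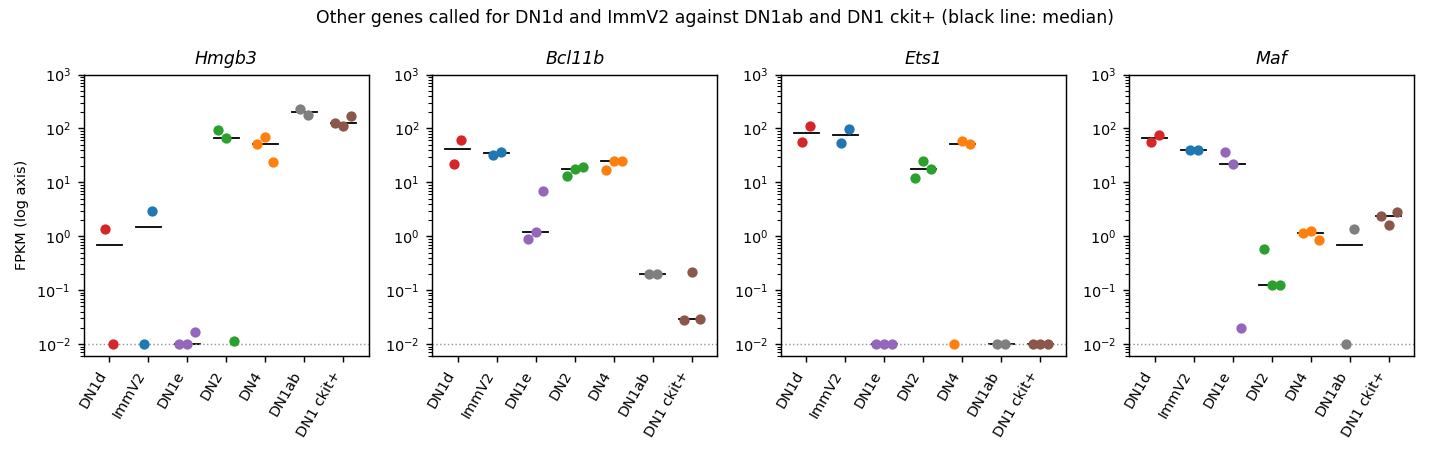
FPKM (log axis) of Hmgb3, Bcl11b, Ets1 and Maf in each library, with DN1d and ImmV2 at the left and DN1ab and DN1 ckit+ at the right; points are libraries and black lines are population medians. Hmgb3 is at 112 to 228 FPKM at the right and under 3 FPKM at the left, and Bcl11b, Ets1 and Maf are higher at the left.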

How the data were processed

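The authors deposited log2 FPKM values, with 1 row per gene symbol and 34082 rows. Reads were aligned with Bowtie to mouse build mm8, per the submitters' processing notes; how transcripts were quantified and libraries normalized is not given in the sources used here, and high values appear to lie on a scale shared by rank between libraries. From these, FPKM was recovered, 1 FPKM added and log2 taken. Changes of low genes come out too small on this scale. A filter kept the 24525 genes that reached 1 FPKM in 2 or more libraries, and they were fitted with limma 3.58.1 in R 4.3.3 as 7 population means over 18 libraries (eBayes with a trend, two-sided, Benjamini-Hochberg over all genes). A call needed an adjusted p under 0.05 and a log2 difference of 1 or more in either direction. There were 11 comparisons and a moderated F test. The fit was also run on simulated data, drawn as independent normal values around the gene means. Such data lack the many values at 0.01 FPKM, so that run does not show how the fit behaves on them. Alternatives were pseudocounts of 0.1 and 5 FPKM and none, no filter, at least 1 FPKM in at least 6 libraries, quantile normalization, a replicate block, only the compared populations, and each library left out.

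The factors, gene lists, comparisons and motifs were chosen with earlier results of these data, or the sequences, known. Named were the 7 factors, up to 4 called genes of a list, the 6 other HMG-box genes highest by median, and the 3 genes most like each factor, without RIKEN, Gm, LOC, microRNA, small nucleolar, clone and receptor segment names. Marker genes were named where they move with a factor. One further gene is not reported here. Shorter forms of the motifs, which match more windows, were looked at and not kept. Sequences are from RefSeq on GRCm38.p6, another build than mm8, so no coordinates of the files are used.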

Additional observations from a re-analysis of the deposited data

How the results depend on the processing

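Of 698 values recomputed for the members under the alternatives, 692 kept their direction and their side of the threshold, 5 newly passed it and 1 turned. All 5 were Tox2. No member was called in the fit described, so keeping a side of the threshold meant staying uncalled. That does not measure how firm a difference is. With a pseudocount of 5 FPKM, 1 member was called in DN1 ckit+ against ImmV2 (log2 difference -2.00, limma adjusted p = 0.0409). With single libraries left out, the members called numbered 0 to 1 in DN1ab, DN1 ckit+ and DN1e against ImmV2 and in the joint comparison, the count of 1 coming without DN1e 3. Tcf7 in DN4 against ImmV2 lay between -0.0785 and 3.13. The moderated F test called 0 members in all 25 of its alternatives, the lowest adjusted p being 0.0519 for Tox2.

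Counts over all genes moved by more than 1.5 times in every comparison. They were 15 to 170 in the fit described, 9 to 113 with a replicate block, 0 to 84 with only the compared populations (0 in 7 of the 11), 0 to 77 with the filter on 6 libraries, 1 to 99 on the values as deposited, 4 to 147 with a pseudocount of 0.1 FPKM, 28 to 213 with no filter and 10 to 351 with single libraries left out. The F test called 343 genes, 169 with the replicate block, 146 on the values as deposited, 132 with the filter on 6 libraries and 226 with a pseudocount of 0.1 FPKM.

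No pairing by replicate number was seen in the values. Deviations of libraries with the same number correlated at a median of -0.00228 (48 pairs, -0.0164 to 0.0174), against 0.00159 for different numbers (90 pairs). In groups of 2 libraries the deviations mirror each other by construction. Whether libraries with the same number share a sort or animals cannot be told from these correlations, and the labels do not say. With the replicate block 0 members were called in any comparison. The unknown depth, the groups of 2 or 3 and the many values at 0.01 FPKM limit what can be detected.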
